A study of Homo sapiens with 12 samples.

Results

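Of the 1477 clusters of RNA crosslinked to eIF3 in 293T cells, each listed for 1 subunit, 201 were annotated to coding exons or start codons. They are called coding clusters here. They were taken as every cluster that the authors' table annotates as CDS exon (145 clusters) or start codon (56 clusters), whatever its values. They fell in 70 genes of the 479 in the table. When clusters of different subunits that overlapped on the same strand by at least 1 nt were joined, the 201 clusters made 82 loci of 558 in all: 59 in coding exons, 22 at start codons and 1, in the linker histone gene HIST1H1C, that carried both annotations.

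The study sequenced RNA crosslinked to eIF3 in 293T, an established human embryonic kidney line, by PAR-CLIP. Per the labels' protocols, the cells of all groups grew for 14 h with 100 µM 4-thiouridine and were irradiated with 0.15 J per square cm of ultraviolet light, and eIF3 was pulled down with an antibody against eIF3b. RNase T1 trimmed the RNA, and protein with its RNA was cut from a denaturing gel. The 4 groups were the subunits eIF3a, eIF3b, eIF3d and eIF3g, each with 3 replicates (12 libraries), and differed in no genotype or treatment. There is no control library in this set. Replicate 1 had a random 5′ barcode, and the labels do not say whether replicates were separate cultures. The table gives 1 pooled read count and 1 pooled number of T-to-C conversions for each cluster and subunit. The values below therefore have no SD, and no difference was tested. Intervals are at 95% and cover counting error only. The table lists bound RNA and not expression, so the cell line could not be checked against marker genes.

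eIF3 is the largest of the translation initiation factors. It binds the small ribosomal subunit, helps to place it on mRNA, and remains near it while the 5′ UTR is scanned for the start codon. It can also contact particular mRNAs directly, mostly in their 5′ UTRs. In PAR-CLIP, 4-thiouridine built into the RNA crosslinks to protein and turns up in the sequence as C instead of T, so a T-to-C conversion marks a contact.

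Coding clusters made up between 11.7% and 15.2% of each subunit's list. There were 57 among 375 clusters of eIF3a (15.2%, Wilson interval 11.9 to 19.2), 42 of 298 for eIF3b (14.1%, 10.6 to 18.5), 55 of 403 for eIF3d (13.6%, 10.6 to 17.3) and 47 of 401 for eIF3g (11.7%, 8.93 to 15.2). All 4 intervals overlapped. Start codon clusters numbered 15, 9, 17 and 15, in the same order of subunits.

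By reads the subunits were far apart. Coding clusters held 1959 reads for eIF3a, 6200 for eIF3b, 7873 for eIF3d and 1470 for eIF3g, which were 12.9%, 32.3%, 32.6% and 2.36% of all reads in clusters. A single mRNA, EIF3A, which encodes the eIF3a subunit itself, accounted for 88.1% of coding reads with eIF3b and 77.9% with eIF3d, but for 19.5% with eIF3a and 3.27% with eIF3g. With EIF3A taken out of coding and total reads alike, the coding share was 10.7% for eIF3a, 5.36% for eIF3b, 9.66% for eIF3d and 2.28% for eIF3g. The order of the subunits thus changed, and eIF3b moved from the level of eIF3d to below eIF3a. The eIF3g share is set against a total of which most was noncoding RNA. Over reads of mRNA annotations alone and without EIF3A, a denominator chosen after seeing the data, eIF3g stood at 9.84% and eIF3b at 7.96%.

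**Figure D1:**
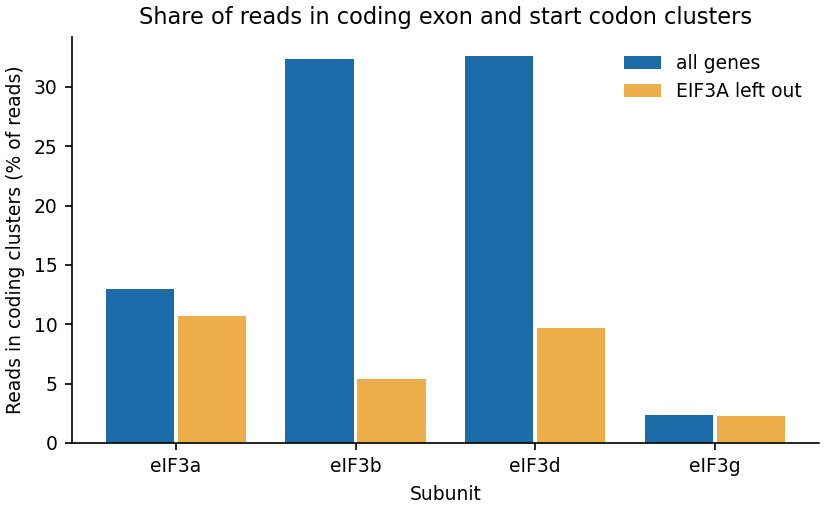
Reads in coding exon and start codon clusters as a percentage of all reads in clusters, for each subunit, with all genes (blue) and with EIF3A left out of coding and total reads (yellow). With EIF3A the bars of eIF3b and eIF3d stand at 32.3% and 32.6%, and without it at 5.36% and 9.66%.

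EIF3A carried 5 separate coding loci on the minus strand of chromosome 10 (all positions are in hg19, as the authors' table gives them). The strongest, at chr10:120833313-120833368, had 1963 reads for eIF3b and 3315 for eIF3d and was not listed for eIF3a or eIF3g. Further 3′, 227 nt away in the genome, the locus at chr10:120833010-120833085 had 97 reads for eIF3a, 194 for eIF3b and 142 for eIF3d. The site at chr10:120832520-120832557 was listed for eIF3b alone, with 1875 reads.

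The locus at chr10:120829052-120829168 had 224 reads for eIF3a, 1411 for eIF3b and 2599 for eIF3d, ratios of 6.30 (exact interval 5.47 to 7.29) and 11.6 (10.1 to 13.4) over eIF3a. In it the eIF3a and eIF3d clusters did not overlap each other and were joined through the wide eIF3b cluster, so their ratio compares neighbouring positions. The fifth locus, at chr10:120820753-120820790, was the 1 site of EIF3A listed for all 4 subunits, with 61 reads for eIF3a, 21 for eIF3b, 76 for eIF3d and 48 for eIF3g. At this site eIF3b was the lowest subunit, while at chr10:120833010-120833085 it was the highest. At the fifth locus the eIF3a cluster (120820753-120820773) overlapped those of eIF3b (120820762-120820789) and eIF3g (120820765-120820789) only in part. Its conversions per read were 0.230, against 0.0476 for eIF3b and 0.0417 for eIF3g. The table holds no cluster under 8 reads, so a site that is not listed may have had fewer reads or have missed the authors' threshold, which the sources used here do not give.

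Other eIF3 subunit mRNAs also had clusters in coding exons. Conversions were few in them: outside eIF3d, EIF3A had 0.0417 to 0.230 per read, and EIF3B, EIF3K and EIF3M at most 0.12. With no control library, whether these clusters mark direct contacts was not tested. Of the 5 eIF3 subunit mRNAs with any cluster in the table, 4 had a coding one, beside 70 of all 479 genes (14.6%). None of these lay at a start codon, where 23 of the 479 genes (4.80%) had a cluster. EIF3M (chr11:32623862-32623910, plus strand) had 50 reads for eIF3a, 89 for eIF3b, 103 for eIF3d and 131 for eIF3g, and was the strongest coding exon locus outside EIF3A. EIF3B (chr7:2419030-2419057, plus strand) had 35 reads for eIF3a and 19 for eIF3b. EIF3K (chr19:39116693-39116730, plus strand) had 42 reads for eIF3b alone. The 8 coding loci of these 4 mRNAs held 12495 of the 17502 coding reads. EIF3M and EIF3B had 5′ UTR clusters as well: that of EIF3M had 18 reads for eIF3a and 63 for eIF3g, and that of EIF3B 19 for eIF3a, 53 for eIF3d and 82 for eIF3g. No eIF3b cluster was listed in the 5′ UTR of either.

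Outside the eIF3 subunit mRNAs the coding exon loci were of moderate strength. ATP5B, the beta subunit of the mitochondrial ATP synthase, led them (chr12:57039664-57039696, minus strand) with 82 reads for eIF3a, 30 for eIF3b, 66 for eIF3d and 136 for eIF3g. ARF4, a small GTPase of Golgi traffic (chr3:57582837-57582862, minus strand), had 27, 8, 14 and 97 reads in the same order. In both, eIF3g was the highest subunit and eIF3b the lowest, and for ARF4 the eIF3g reads were 3.59 times those of eIF3a (2.32 to 5.73). GTF3C2, a subunit of the RNA polymerase III factor TFIIIC (chr2:27566398-27566417, minus strand), was low in eIF3a with 10 reads, had 69 for eIF3d and 48 for eIF3g, and was not listed for eIF3b.

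DDI2, a protease that activates the transcription factor NRF1, had 2 coding exon loci that lay 5 nt apart. That at chr1:15944262-15944288 (plus strand) had 22, 20, 45 and 45 reads for eIF3a, eIF3b, eIF3d and eIF3g, and that at chr1:15944230-15944256 had 29 for eIF3a, 43 for eIF3d and 20 for eIF3g. ZNF703, a zinc finger transcriptional repressor, had a pair too: the first (chr8:37554727-37554754, plus strand) held 29, 40, 28 and 20 reads, and the second (chr8:37554862-37554911), 107 nt on, held 15, 9, 21 and 19. The first was strongest in eIF3b and the second in eIF3d. TIMM8A, a chaperone of mitochondrial protein import (chrX:100603623-100603648, minus strand), had 28, 21, 41 and 17 reads. C12orf65, a mitochondrial protein of the release factor family (chr12:123738236-123738259, plus strand), was one of few loci that leaned to eIF3b: it had 13 reads for eIF3a, 55 for eIF3b, 17 for eIF3d and 13 for eIF3g.

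Start codon clusters were led by SNRPA, an RNA-binding protein of the U1 splicing particle (chr19:41257292-41257315, plus strand), with 141 reads for eIF3a, 31 for eIF3b, 163 for eIF3d and 84 for eIF3g. BIRC5, which encodes survivin, an inhibitor of apoptosis that also acts in cell division (chr17:76210369-76210399, plus strand), had 88, 20, 171 and 96 reads in the same order. Both were high in eIF3d and low in eIF3b. BIRC5 also had a coding exon cluster 361 nt downstream, listed for eIF3a alone with 18 reads.

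Of the 22 start codon loci, 8 were listed for all 4 subunits. Besides SNRPA and BIRC5 these were the histone genes HIST1H2AD, HIST1H2BO and HIST1H1E, the zinc finger gene ZNF503, PRKAR2A, a regulatory subunit of protein kinase A, and MSH6, a mismatch repair protein. HIST1H2AD (chr6:26199459-26199479, minus strand) had 83 reads for eIF3a, 9 for eIF3b, 109 for eIF3d and 93 for eIF3g. HIST1H2BO (chr6:27861210-27861247, plus strand) had 60, 13, 63 and 36, and HIST1H1E (chr6:26156590-26156636, plus strand) 44, 21, 40 and 25. In all 3 histone mRNAs eIF3b was the lowest subunit.

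ZNF503 (chr10:77161169-77161199, minus strand) had 49 start codon reads for eIF3a, 20 for eIF3b, 31 for eIF3d and 15 for eIF3g. PRKAR2A (chr3:48885028-48885053, minus strand) had 28, 11, 31 and 33. MSH6 (chr2:48010372-48010392, plus strand) had 9, 8, 41 and 12, and so was high in eIF3d alone. The remaining leading start codon loci lacked at least 1 subunit. CCDC86, a nucleolar protein, had 22 reads for eIF3a, 55 for eIF3d and 15 for eIF3g. MTHFD2, a mitochondrial enzyme of folate metabolism, had 25, 19 and 34 in those subunits. STIP1, the cochaperone that links HSP70 and HSP90, had 56 for eIF3a and 29 for eIF3g. RNF138, a ubiquitin ligase, had 40 for eIF3a and 19 for eIF3d. None of these 4 was listed for eIF3b at its start codon.

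**Figure D2:**
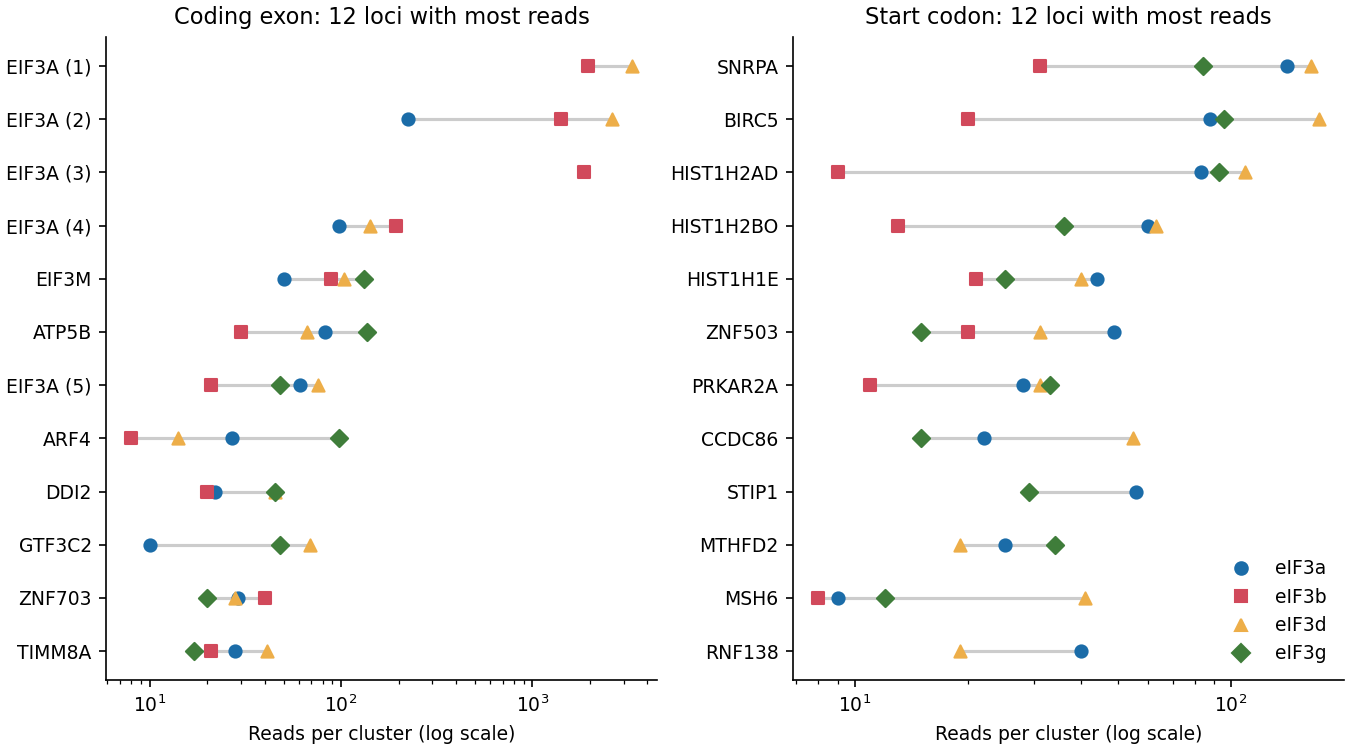
Reads per cluster (log scale) in eIF3a, eIF3b, eIF3d and eIF3g at the 12 coding exon and the 12 start codon loci with the most summed reads, 1 point per subunit that lists the locus, with the 5 EIF3A loci numbered by reads. EIF3A loci 1 to 3 reach 1963 reads for eIF3b and 3315 for eIF3d, and at SNRPA, BIRC5, HIST1H2AD, HIST1H2BO, HIST1H1E, PRKAR2A and MSH6 the eIF3b point lies furthest left.

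The ratio of eIF3b to eIF3a reads was lower at start codons than at the other loci of these lists. At the 8 start codon loci listed for both subunits, eIF3b had fewer reads than eIF3a at 8 of 8, with a median ratio of 0.310 and a range from 0.108 in HIST1H2AD to 0.889 in MSH6. At the 23 coding exon loci the median ratio was 0.938, with 12 below 1, and at 151 5′ UTR loci it was 0.816, with 91 below 1. The ratio was 0.220 in SNRPA (exact interval 0.144 to 0.326) and 0.227 in BIRC5 (0.132 to 0.373). In MSH6 the interval, from 0.298 to 2.60, included 1. No cluster under 8 reads is listed, so a locus weak in eIF3a cannot show a low ratio. Start codon clusters were stronger in eIF3a, with median reads of 40 against 17 in coding exons. Single coding exon loci were also low: PGRMC1 at 0.267, ARF4 at 0.296 and ATP5B at 0.366, while 9 of the 23 were above 1. Among clusters of both subunits at or above their medians, the class medians were 0.318 and 0.909. Few loci were left: at start codons SNRPA, BIRC5, ZNF503 and HIST1H1E alone. In coding exons they were in EIF3A, EIF3B, EIF3M, DDI2, ATP5B, ZNF703 and TIMM8A, so eIF3 subunit mRNAs weighed in that median. PGRMC1, with 45 reads for eIF3a and 12 for eIF3b, fell out by this limit. The part of eIF3a reads in this difference was not tested.

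By the median, the same loci were low in eIF3b against the other subunits. Over eIF3b, eIF3d had a median ratio of 4.99 at the 8 start codon loci, 1.67 at 21 coding exon loci and 1.24 at 152 5′ UTR loci. For eIF3g over eIF3b the medians were 2.74, 1.42 and 1.00 (157 5′ UTR loci). At 1 of the 8 start codon loci, ZNF503, eIF3g had fewer reads than eIF3b (15 against 20). Between eIF3d and eIF3a the classes lay closer, at 1.11 for 13 start codon loci, 1.31 for 29 coding exon loci and 1.08 for 208 5′ UTR loci. Reads of eIF3g were also lower at start codons by the median: over eIF3a the ratio was 0.682 at 11 start codon loci, 1.00 at 25 coding exon loci and 0.833 at 197 5′ UTR loci, and over eIF3d it was 0.571, 0.771 and 0.854. A low start codon median was thus not limited to eIF3b. Summed over all start codon clusters, eIF3b had 146 reads, against 695 for eIF3a, 834 for eIF3d and 529 for eIF3g. eIF3b listed 9 of the 22 start codon loci (40.9%), where eIF3a listed 15, eIF3d 16 and eIF3g 15. It listed 54.2% of the coding exon loci and 52.1% of the 5′ UTR loci.

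The eIF3b start codon ratio was also seen without histone genes, whose copies are so alike that reads may be placed on the wrong one: the median was then 0.393, as it was without SNRPA. All 4 subunits came through 1 antibody and each pair of ratios shares a library, so these ratios are not independent of each other. At the start codon the list holds 8 points from 1 pooled value per subunit, and whether the difference exceeds the spread between replicates was not tested.

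**Figure D3:**
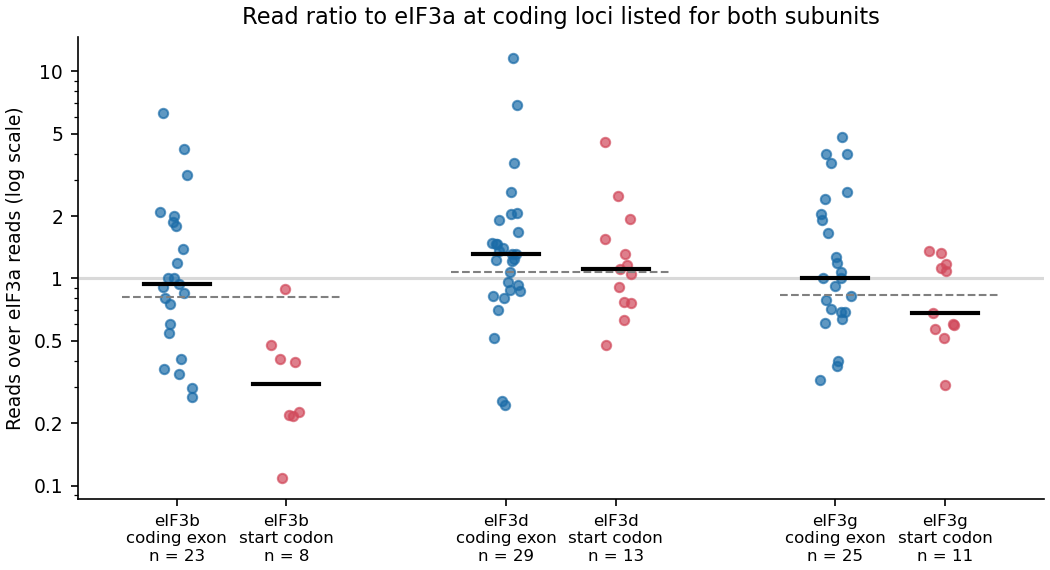
Reads of eIF3b, eIF3d and eIF3g divided by reads of eIF3a (log scale) at coding loci listed for both subunits, 1 point per locus. Black bars are medians and dashed lines are the medians of 5′ UTR loci. The 8 start codon loci of eIF3b lie below 1 with a median of 0.310, and the 23 coding exon loci have a median of 0.938.

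Counts of large ratios were read against the share of all shared loci of the table. Reads of eIF3b were at least 2-fold those of eIF3a at 5 of 31 coding loci (16.1%, against 16.6% in the table) and at most 0.5 times at 12 (38.7%, against 23.1%), of which 7 were start codons. Reads of eIF3d were at least 2-fold those of eIF3a at 8 of 42 (19.0%, against 19.7%) and at most 0.5 times at 3 (7.14%, against 8.7%). Reads of eIF3g were at least 2-fold at 7 of 36 (19.4%, against 21.8%) and at most 0.5 times at 4 (11.1%, against 19.7%). Apart from the low eIF3b reads, these shares were near or below the table's. Besides EIF3A, the loci that leaned to eIF3b included C12orf65, at 4.23 times eIF3a (2.28 to 8.44), and the ZNF503 coding exon locus, at 3.17 times (1.62 to 6.66). The latter stands against the ZNF503 start codon, at 0.408 times (0.230 to 0.699), 153 nt upstream in the same mRNA.

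ZNF503, STIP1 and ARF4 also had a 5′ UTR cluster near the coding one. The ZNF503 coding exon locus (chr10:77160989-77161015, minus strand) had 12 reads for eIF3a, 38 for eIF3b, 23 for eIF3d and 29 for eIF3g, and the nearer 5′ UTR cluster of this gene had 51, 131, 99 and 33. Along this mRNA eIF3b was the highest subunit in the 5′ UTR, not at the start codon, and again the highest in the coding exon. The last rests on 38 against 29 reads for eIF3g and was not tested. At the start codon the eIF3a cluster (77161176-77161199) overlapped that of eIF3b (77161169-77161191) only in part. STIP1 had a 5′ UTR cluster that ended 4 nt before the start codon cluster: the former was listed with 9 reads for eIF3a and 18 for eIF3b, the latter with 56 for eIF3a and 29 for eIF3g. ARF4 had a 5′ UTR cluster with 16 reads for eIF3a, 41 for eIF3d and 32 for eIF3g, 144 nt in the genome from the coding exon locus in which eIF3g was highest.

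Few genes had both coding and other clusters. Of the 70 genes, 63 had coding clusters and no other kind. Seen from the other side, 331 of the 479 genes of the table had a 5′ UTR cluster, and 6 of these had a coding one. The share of all genes with a single kind of cluster was not computed, so standing alone is not shown to be particular to coding clusters. The 6 genes with a 5′ UTR cluster as well were ARF4, EIF3B, EIF3M, SCD, STIP1 and ZNF503, and COA1 had a 3′ UTR cluster. SCD, the stearoyl-CoA desaturase of lipid synthesis, had 3 loci in its 5′ UTR with up to 69 reads and a weaker coding exon locus (chr10:102107829-102107856, plus strand) with 11 reads for eIF3a, 11 for eIF3b and 21 for eIF3g. Only 2 of the 23 start codon genes, STIP1 and ZNF503, had a 5′ UTR cluster, and 5 of the 50 coding exon genes had one.

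Start codon clusters were stronger than coding exon clusters in 3 of the 4 subunits by the median. Median reads at start codons and in coding exons were 40 and 17 for eIF3a, 31 and 18.5 for eIF3d, 25 and 18 for eIF3g, and 13 and 15 for eIF3b. The 5′ UTR medians were 21.5, 18.5, 22 and 19 for eIF3a, eIF3b, eIF3d and eIF3g. In eIF3a, 12 of 15 start codon clusters reached the median of all its clusters, against 17 of 42 coding exon clusters. In eIF3b, 4 of 9 and 15 of 33 did. Without EIF3A, the strongest coding cluster was SNRPA in eIF3a (141 reads), EIF3M in eIF3b (89), BIRC5 for eIF3d (171) and ATP5B in eIF3g (136).

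Clusters were short in both classes. The median width was 24 nt at start codons (range 19 to 44) and 26 nt in coding exons (15 to 107), against 25 nt in 5′ UTRs. Only 8 coding clusters reached 40 nt: 5 in EIF3A, 2 in EIF3M and 1 in HIST1H1E. The 5 that reached 50 nt were all in EIF3A, 107, 74 and 56 nt in eIF3b and 60 and 50 nt in eIF3a. In eIF3d the EIF3A clusters were no wider than 38 nt, though they held the most reads. At 61 loci listed for 2 or more subunits, 29 had the same start and end in each of them and 48 the same start or the same end.

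Fewer coding than 5′ UTR loci were listed for all subunits. All 4 listed 18 of 82 coding loci (22.0%, Wilson interval 14.4 to 32.1), against 31.0% of all loci of the table and 31.9% of 376 5′ UTR loci (27.4 to 36.8), and these intervals overlapped. Coding exon loci were listed by 1, 2, 3 and 4 subunits at 14, 15, 20 and 10 sites (16.9% for all 4, 9.48 to 28.5). Start codon loci were listed at 7, 5, 2 and 8 sites (36.4%, 19.7 to 57.0). As a mean over the subunits that list a locus, start codon loci of 1 subunit had a median of 12 reads and those of all 4 had 37.8. For coding exon loci the medians were 16 and 31.1, although the EIF3A site listed for eIF3b alone had 1875 reads. A weak site near the lowest listed count of 8 reads may be missed in a subunit.

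**Figure D4:**
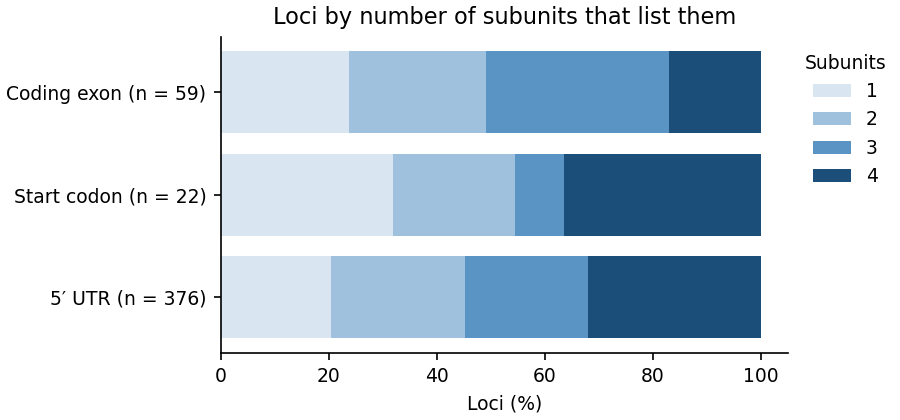
Percentage of loci listed for 1, 2, 3 or 4 subunits among 59 coding exon, 22 start codon and 376 5′ UTR loci. Loci of all 4 subunits make up 16.9%, 36.4% and 31.9%.

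By gene, 17 of the 70 had coding clusters in all 4 subunits, 19 in 3, 19 in 2 and 15 in 1. The 17 were ARF4, ATP5B, BIRC5, C12orf65, DDI2, EIF3A, EIF3M, HIST1H1E, HIST1H2AC, HIST1H2AD, HIST1H2BO, MSH6, PRKAR2A, SNRPA, TIMM8A, ZNF503 and ZNF703. The 19 genes of 3 subunits were ADNP, AMOTL1, CCDC86, CNTNAP2, COA1, DICER1, ELP5, GEMIN4, GTF3C2, HIST1H3B, HSPD1, JMJD8, MTHFD2, NRAS, NUPL1, PGRMC1, SCD, TMED5 and ZNF460. Those of 2 subunits were C8orf33, CRYGS, DPH5, EIF3B, EMP3, FAM126A, HIST1H1C, HIST1H4C, INO80E, KIF2C, MRPL51, PI4K2A, RNF138, RTN3, SET, STIP1, TOR1A, TRIM11 and TRMT61B. Those of 1 subunit were CLNS1A, DTYMK, EIF3K, GTPBP3, HIST1H2AM, HIST1H3J, HOXA13, MT-ND4L, NUDT16, SOGA3, TMEM206, TMEM222, TOMM40L, TPP2 and UQCR10. At the 18 loci of all 4 subunits, eIF3d had the most reads at 8, eIF3g at 4, eIF3b at 3 and eIF3a at 2, with 1 tie. At 5′ UTR loci of all 4 subunits the numbers were 35, 27, 22 and 33, with 3 ties.

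Histone genes were the list with the most members among the coding clusters. Of 14 core and linker histone genes in the table, 9 had a coding cluster (14.6% of all genes of the table had one), 5 of them at the start codon (4.80% of all genes), in 11 loci with 793 reads. Histone mRNAs have short UTRs and no poly(A) tail in dividing cells. HIST1H2AC had 3 coding exon loci, of which the middle one (chr6:26124585-26124607, plus strand) had 20 reads for eIF3a, 27 for eIF3d and 8 for eIF3g, while the outer ones had 13 reads for eIF3b and 12 for eIF3d. HIST1H3B had 14, 13 and 15 reads for eIF3a, eIF3d and eIF3g, HIST1H4C 12 for eIF3b and 18 for eIF3d, HIST1H2AM 16 for eIF3a and HIST1H3J 11 at the start codon in eIF3d. The HIST1H1C locus (chr6:26056630-26056665, minus strand) joined a coding exon cluster of eIF3b with 10 reads to a start codon cluster of eIF3d with 8 reads, which overlapped by 9 nt. Histone genes are near-identical copies, and the authors' handling of reads that match several copies is not described in the labels or file headers, so the copy is uncertain.

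The counts of the other lists were small, and the share of all genes of the table with a coding cluster was 14.6%. All lists were made from patterns in gene symbols, so a gene of like function can be missing from them. Of the zinc finger ZNF genes, 3 of 11 had one (27.3%): ZNF503, ZNF703 and ZNF460, the last with 16 reads for eIF3a, 15 for eIF3b and 19 for eIF3g. Of core metabolism 4 of 17 (23.5%) had one (ATP5B, MTHFD2, SCD and UQCR10, a subunit of respiratory complex III with 9 reads for eIF3g). Of the secretory and membrane group 4 of 17 (23.5%) had one: ARF4, TMED5, a cargo receptor with 28 reads at one locus and 13 at another, TMEM206, a chloride channel with 16 reads for eIF3d, and TMEM222 with 13 for eIF3g. The chaperone list, which did not hold TIMM8A, gave 2 of 9 (22.2%), HSPD1 and STIP1. These 4 shares were above that of all genes and rest on 2 to 4 genes each. Splicing proteins gave 1 of 18 (SNRPA), cell cycle and replication genes 1 of 16 (BIRC5), chromatin regulators 1 of 15 (SET, with 11 start codon reads each in eIF3d and eIF3g) and cytoskeleton genes 1 of 8 (KIF2C, a microtubule-depolymerizing kinesin with 18 start codon reads for eIF3a and 28 for eIF3d). No coding cluster was listed for the 11 cytosolic ribosomal protein genes in the table. Nor was one found for the 8 genes of the list of other translation factors or the 8 of the ubiquitin and proteasome list. RNF138, the ubiquitin ligase with a start codon cluster, was not in that last list. In lists of this size a share of 14.6% is between 1 and 2 genes, so little can be read from these zeros. The other 40 genes with a coding cluster were in no list.

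T-to-C conversions split the coding exon clusters of eIF3a, eIF3b and eIF3g into separate ranges. Most had about 1 conversion per read: the medians in coding exons were 1.06 for eIF3a, 1.00 for eIF3b and 1.10 for eIF3g, and at start codons 1.02, 1.05 and 0.938. The 5′ UTR medians were 1.00, 1.06 and 1.03. The coding exon value of eIF3b depended on the summary: it was 0.147 among clusters at or above the subunit's median reads and 0.195 as summed conversions over summed reads. A second range lay under 0.25, a limit set after seeing the values. It held 7 of 57 coding clusters for eIF3a (12.3%, beside 6.4% of its clusters of any annotation), 9 of 42 for eIF3b (21.4%, beside 6.71%) and 3 of 47 for eIF3g (6.38%, beside 8.98%). EIF3A alone gave 3 of the 7 low clusters for eIF3a, 5 of the 9 for eIF3b and 1 of the 3 for eIF3g. Several clusters of 1 mRNA thus count separately in these shares, which were not computed without EIF3A. The highest value in the range under 0.25 was 0.230, 0.147 and 0.156, and the lowest above it 0.667, 0.583 and 0.5, in eIF3a, eIF3b and eIF3g.

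All of these low values came from 6 genes: EIF3A, EIF3B, EIF3K, EIF3M, DICER1, the nuclease that cuts microRNA precursors, and CRYGS, a lens crystallin. All lay in coding exons, and none of the 39 start codon clusters of the 3 subunits was under 0.25. EIF3A had 289 conversions in 1963 reads at its strongest eIF3b cluster and 15 in 224 reads for eIF3a. DICER1 (chr14:95590945-95590975, minus strand) had 8 reads for eIF3a, 15 for eIF3b and 32 for eIF3g, at 0.125, 0.133 and 0.156 conversions per read. CRYGS (chr3:186256595-186256632, minus strand) had 38 reads for eIF3a at 0.0789 conversions per read and 46 for eIF3d. The 5′ UTR clusters of EIF3M and EIF3B were low too, with 10 conversions in 63 reads and 4 in 82 reads for eIF3g. In these 2 genes both regions of the mRNA thus lay in the low range.

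By the median, the clusters of the 6 genes were wider. In eIF3a, eIF3b and eIF3g they numbered 19, with a median width of 38 nt and 6353 reads, against 25 nt and 3276 reads for the other 127 coding clusters. EIF3A gave 9 of the 19, and without it the median of the remaining 10 was 30 nt, with 459 reads. Those of EIF3B, at 21 and 28 nt, were within the range of the other clusters. Median reads were higher as well, at 50 in the 6 genes and 20 in the other coding clusters for eIF3a, 89 and 13 for eIF3b, and 48 and 18 for eIF3g, while single low values occurred from 8 reads (DICER1) to 1963 (EIF3A). Outside coding sequence, 61 clusters of eIF3a, eIF3b and eIF3g in 33 genes were under the same limit, 14 of them in 5′ UTRs. The part of width and of reads in this difference was not tested.

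**Figure D5:**
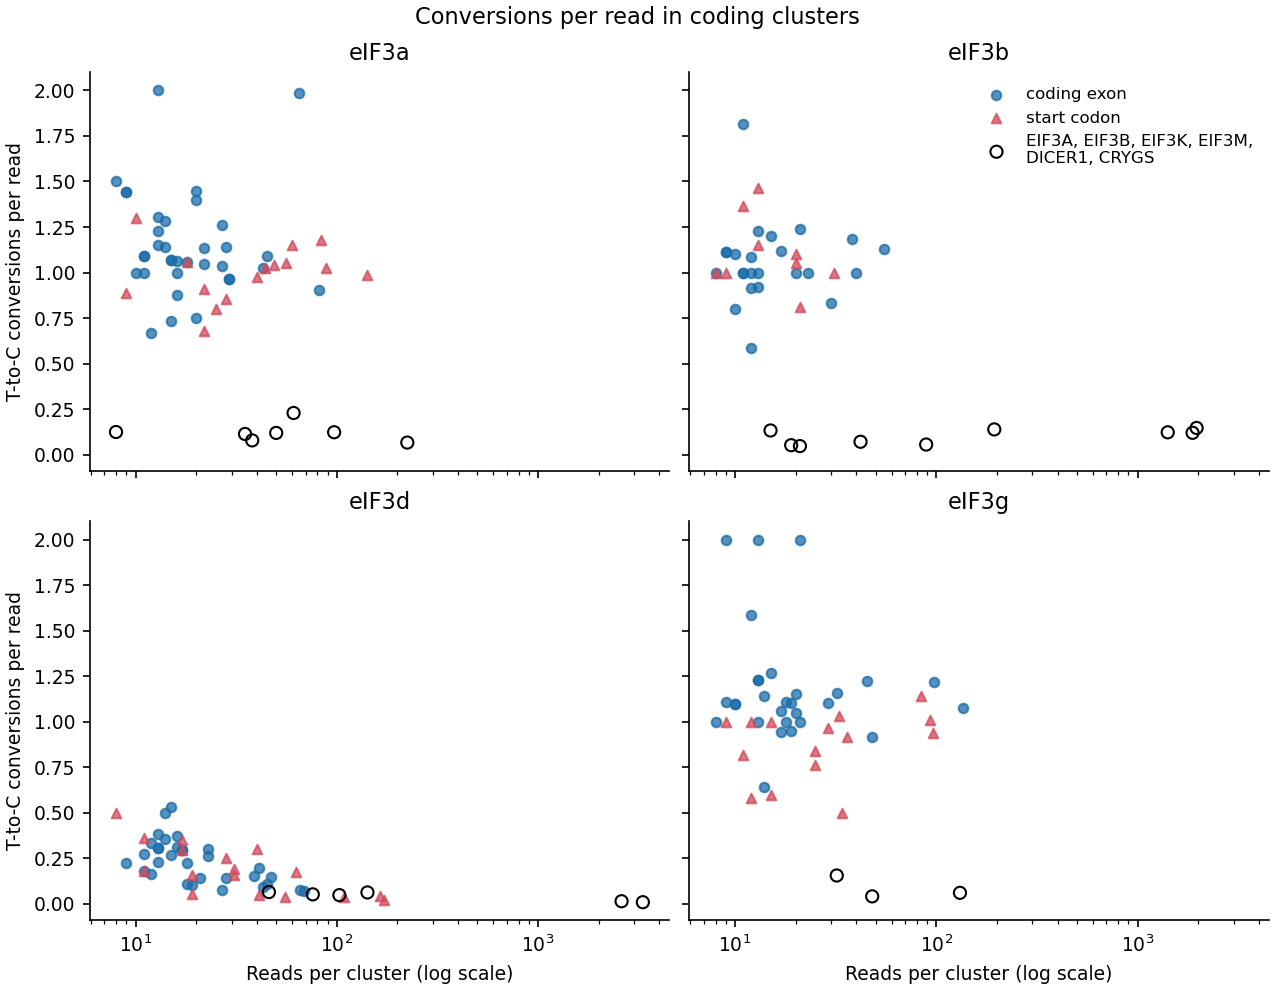
T-to-C conversions per read against reads per cluster (log scale) for the coding exon (blue circles) and start codon (red triangles) clusters of each subunit, with the clusters of EIF3A, EIF3B, EIF3K, EIF3M, DICER1 and CRYGS as open circles. In eIF3a, eIF3b and eIF3g the open circles lie at or below 0.230 and all others at or above 0.5, while in eIF3d all clusters lie at or below 0.533.

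A few coding exon clusters had near 2 conversions per read. At 1.9 or more were 2 of 57 coding clusters for eIF3a (3.51%, beside 5.07% of its clusters of any annotation), 0 of 42 for eIF3b (beside 5.03%) and 3 of 47 for eIF3g (6.38%, beside 5.49%). HSPD1, the mitochondrial chaperonin HSP60 (chr2:198363495-198363517, minus strand), had 129 conversions in 65 reads for eIF3a and 42 in 21 reads for eIF3g. ADNP, a homeodomain transcription factor, had 26 in 13 reads in both of these subunits and 20 in 11 reads of eIF3b, a value of 1.82 and so under the limit. TPP2, a peptidase, had 18 in 9 reads for eIF3g. HSPD1 was not listed for eIF3b.

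In eIF3d the number of conversions hardly followed the reads. The median of its coding clusters was 0.188 conversions per read in coding exons and 0.175 at start codons, beside 0.2 in 5′ UTRs. Outside EIF3A the number of conversions in a coding cluster ran from 1 to 12 while reads ran from 8 to 171. For SNRPA, 163 reads of eIF3d carried 7 conversions and 141 reads of eIF3a carried 139. For BIRC5, 171 reads of eIF3d carried 4 and 88 of eIF3a carried 90. The value was lower in eIF3d than in eIF3a at 42 of 42 shared coding loci, lower than in eIF3b at 29 of 30 and lower than in eIF3g at 30 of 31. The exception was in both cases the EIF3A locus of all 4 subunits, with 4 conversions in 76 reads for eIF3d, 1 in 21 for eIF3b and 2 in 48 for eIF3g. What the eIF3d entries count is uncertain, so the ranges under 0.25 and above 1.9 were not read in eIF3d.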

How the data were processed

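The data were 1 table of clusters from 12 PAR-CLIP libraries, with a line for each cluster and subunit. Read counts are the authors' deposited whole numbers without normalization, per the file headers, and T-to-C conversions are a second deposited number per cluster. Per the submitters' processing notes, the authors used cutadapt, Bowtie, bedtools and hg19. The sources used here do not give versions, the cluster caller, its thresholds, the handling of reads with several matches or the way replicates were combined. Depth per library is unknown. The sources also leave unsaid if the first base is 0 or 1. Positions are printed as deposited, and width is end minus start plus 1. Distances between clusters are along the genome.

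Clusters sharing 1 nt or more on a strand formed a locus, by a function tested on simulated data (Python 3.11.15, pandas 2.3.3, numpy 2.4.6). Shares carry Wilson intervals and read ratios exact binomial intervals at 95% (scipy 1.17.1). No test was run, because pooled values have no replicates and clusters are not replicates. All 70 gene names matched a RefSeq table of GRCh38, 55 by symbol and 15 by an older symbol, and all were protein-coding. No coordinates were taken from it. Described in full were the 12 coding exon and 12 start codon loci with the most summed reads, and loci with differing annotations. Genes with 3 or more coding loci and members of 13 gene lists, made from patterns in gene symbols, were too. Members, rules and lists were chosen with earlier results of these data known. The limits of 0.25 and 1.9 conversions per read, the genes named for them and the loci named for single large ratios were chosen after their values were seen. Alternatives were stronger clusters alone, genes in place of clusters, other overlaps, denominators and summaries, and EIF3A left out.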

Additional observations from a re-analysis of the deposited data

How the results depend on the processing

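Of 96 alternative values for 39 results, 70 stayed within 1.5 times the reported value or, for shares of clusters, within its interval. Without start codons, coding clusters made up 11.2% in eIF3a, 9.43% in eIF3d and 7.98% in eIF3g. Leaving out EIF3A lowered the coding read share to 5.36% in eIF3b and 9.66% in eIF3d. Over reads of mRNA annotations it was 10.1% in eIF3g, and without EIF3A as well, a setting chosen after seeing the data, 7.96% in eIF3b, 12.5% in eIF3d and 9.84% in eIF3g. Geometric means of coding exon reads were 28.0 in eIF3b and 30.4 in eIF3d. Summed conversions over summed reads gave 0.195 in eIF3b and 0.0335 in eIF3d for coding exons and 0.102 in eIF3d for start codons, since strong clusters then weigh most. Among clusters at or above their subunit's median reads, these medians were 0.147, 0.0758 and 0.105, and loci of all 4 subunits fell to 8 of all coding, 5 in coding exons and 3 at start codons. At a 4-fold limit against eIF3a, 2 coding loci were higher and 4 lower in eIF3b, 3 and 1 in eIF3d, and 3 and 0 in eIF3g. The lower eIF3b reads at start codons, with a median ratio of 0.310, stayed between 0.310 and 0.393 under 3 alternatives chosen after seeing the data.

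No paired analysis was possible because the table gives 1 pooled value per subunit and no replicate. For the same reason leaving out each replicate was not run. Depth limits the weak sites: the lowest listed count was 8 reads, and at that level a ratio between subunits has a wide interval.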

Other observations

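EIF3M carried clusters of 3 annotations. The locus annotated as 3′ UTR at chr11:32610227-32610279, plus strand, lay 5′ of the coding exon cluster and had 48 reads for eIF3a, 25 for eIF3b, 46 for eIF3d and 120 for eIF3g. Another, at chr11:32622279-32622318, had 50 reads for eIF3g and lay 1543 nt before the coding exon cluster. All EIF3M clusters in eIF3g, 4 in number, had under 0.25 conversions per read.

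MT-ND4L, a mitochondrially encoded subunit of respiratory complex I, was listed for eIF3a alone with 2 clusters of 20 reads each, at chrM:11276-11306 and chrM:11854-11891. They lay 547 nt apart, while the gene is 297 nt long in the RefSeq table, so both cannot lie in it. Which mitochondrial gene each belongs to was not determined.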
